A study of Mus musculus with 6 samples.

Results

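The stefin A cluster of mouse chromosome 16 is a row of closely related genes that encode small inhibitors of cysteine proteases. It was taken as the 9 gene symbols Stfa1, Stfa2, Stfa2l1, Stfa3, BC100530, BC117090, Gm5416, Gm5483 and 2010005H15Rik, out of 24786 gene symbols measured in Raw264.7 cells. The cluster was selected on the measured RPKM of its genes in control and Etv5 knockdown libraries, several of which differed, so that their values in this comparison describe the choice and were not tested. RefSeq lists Gm5483 as Cstdc4, Gm5416 as Csta3, 2010005H15Rik as Csta2, BC100530 as Cstdc5 and BC117090 as Cstdc6. The cluster spans 299 kb (chr16:36156811-36455392 in GRCm38, the build named mm10 in the submitters' notes, with positions from GENCODE release M21), and all 9 genes are annotated as protein coding.

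Stefins are the cystatins that lack a signal peptide, and they therefore stay in the cytosol. A stefin fits into the active site cleft of cysteine cathepsins such as cathepsins L, B and S, and blocks them without being cut. Humans have a single stefin A gene, whereas the mouse locus was expanded by repeated duplication, and mouse stefin A genes are best known from neutrophils and their precursors and from skin.

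Raw264.7 is a macrophage line that grew out of a tumor induced by Abelson murine leukemia virus. Both groups were infected with a lentivirus in the presence of a Lipofectamine transfection reagent, carrying a control hairpin (sh-NC, n = 3 libraries) or a hairpin against the transcription factor gene Etv5 (sh-Etv5, n = 3 libraries), and the labels place expression measurements at 24 or 48 hours after infection. The paper calls the sequenced cells stably transfected and describes selection of infected cells with puromycin over passages, so that the time between infection and sequencing is not settled by these sources. All 6 samples are labelled with the strain C57BL/6 and post natal day 21, although they are a cell line. The sources do not say which of the Etv5 hairpins was sequenced or whether replicate libraries stem from independent infections, so that p-values measure only the spread between these libraries, which may be technical.

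Polyadenylated RNA was sequenced, and expression is given as RPKM, a read density that takes account of gene length and of library size, so that levels of different genes can be set side by side. The commonest value within a preset low range was taken as 1 read, which gave about 18600000 to 22000000 reads per library. On that estimate, 1 read on the cluster genes was worth 0.0734 to 0.183 RPKM. Etv5, the targeted gene, was at 9.18, 9.89 and 9.39 RPKM in sh-NC and at 5.19, 4.91 and 5.28 RPKM in sh-Etv5. Its groups did not overlap, and its log2 fold change was -0.78 (SE 0.0565, adjusted p = 2.74e-07, limma with Benjamini-Hochberg adjustment over 10738 genes). Etv5 is on the same chromosome, 13.7 Mb from the cluster.

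Of the 9 cluster genes, 7 were higher in every sh-Etv5 library than in any sh-NC library, where 19.6% of all 24786 symbols were and 34.3% of the 10738 genes that passed a filter on low values. Since the genes were picked with this comparison known, nothing is read from that count. The remaining pair, BC117090 and BC100530, overlapped between groups because both groups contained libraries in which they were listed at 0. In bulk RNA such as this, a change in the number of expressing cells and a change in the RNA per cell cannot be told apart. In sh-NC, 6 of the 9 genes were listed at 0 in all 3 libraries, and the highest value of any cluster gene was 0.497 RPKM. Zeros were common in the table, as only 14691 to 14824 of the 24786 symbols were above 0 in an sh-NC library. The 10 of 10 housekeeping genes checked were above 0 in every library, and 3 of 82 ribosomal protein genes were at 0 in some library.

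Gm5483 was the highest gene of the cluster. It was at 0.497, 0.341 and 0.352 RPKM in sh-NC and at 240.2, 233 and 287 RPKM in sh-Etv5. The 3 control values correspond to only about 4.26, 2.92 and 3 reads, and the 3 knockdown values to 1887 to 2211 reads. The means of 0.397 ± 0.0873 and 254 ± 29.3 RPKM (SD, n = 3) had a ratio of 639.7, and the difference in mean log2(RPKM + 1) was 7.51 (SE 0.106). Within each sh-Etv5 library Gm5483 ranked between 139 and 173 among all symbols.

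Stfa3, at the opposite end of the cluster and on the other strand, was the second highest. Its values were 0, 0.117 and 0 RPKM in sh-NC, which is about 1 read in a single library, and 82.1, 78.8 and 90.9 RPKM in sh-Etv5. The libraries of sh-Etv5 lay close together, with a coefficient of variation of 7.44%. The difference in mean log2(RPKM + 1) was 6.35 (SE 0.0807), and the gene ranked between 616 and 692 in the sh-Etv5 libraries.

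Gm5416, the third gene from the left end, was listed at 0 in every sh-NC library and was at 27.3, 32.3 and 34.9 RPKM in sh-Etv5, or about 152 to 209 reads. No fold can be given against zeros. The difference in mean log2(RPKM + 1) was 5.02, and it became 8.30 with a pseudocount of 0.1. Gm5483, Stfa3 and Gm5416 together made up 97.8% to 98.7% of the summed RPKM of the cluster in sh-Etv5, with Gm5483 alone at 66.6% to 68.6%.

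Stfa2 and 2010005H15Rik formed a lower tier. Stfa2, one of the classical stefin A genes, was at 0.228, 0.114 and 0 RPKM in sh-NC and at 5.64, 3.71 and 2.16 RPKM in sh-Etv5. It was the most variable of the genes that reached 1 RPKM, with a coefficient of variation of 45.4% in sh-Etv5, and its lowest knockdown value came from replicate 3, the library in which Gm5483, Stfa3 and Gm5416 were at their highest. Its difference in mean log2(RPKM + 1) was 2.06 (SE 0.321). 2010005H15Rik was listed at 0 in all sh-NC libraries and was at 1.91, 1.76 and 1.75 RPKM in sh-Etv5, about 9.57 to 11.4 reads.

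The other four genes stayed under 1 RPKM in every library. Stfa2l1 was listed at 0 in sh-NC and was at 0.260, 0.263 and 0.713 RPKM in sh-Etv5. BC100530 was at 0.120, 0 and 0.434 RPKM and BC117090 at 0, 0 and 0.376 RPKM in sh-Etv5, both listed at 0 in sh-NC. Stfa1 was at 0.00999, 0.0222 and 0.0315 RPKM in sh-Etv5, less than the value of 1 read on its transcript, and a difference in Stfa1 was not detectable at this depth.

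**Figure D1:**
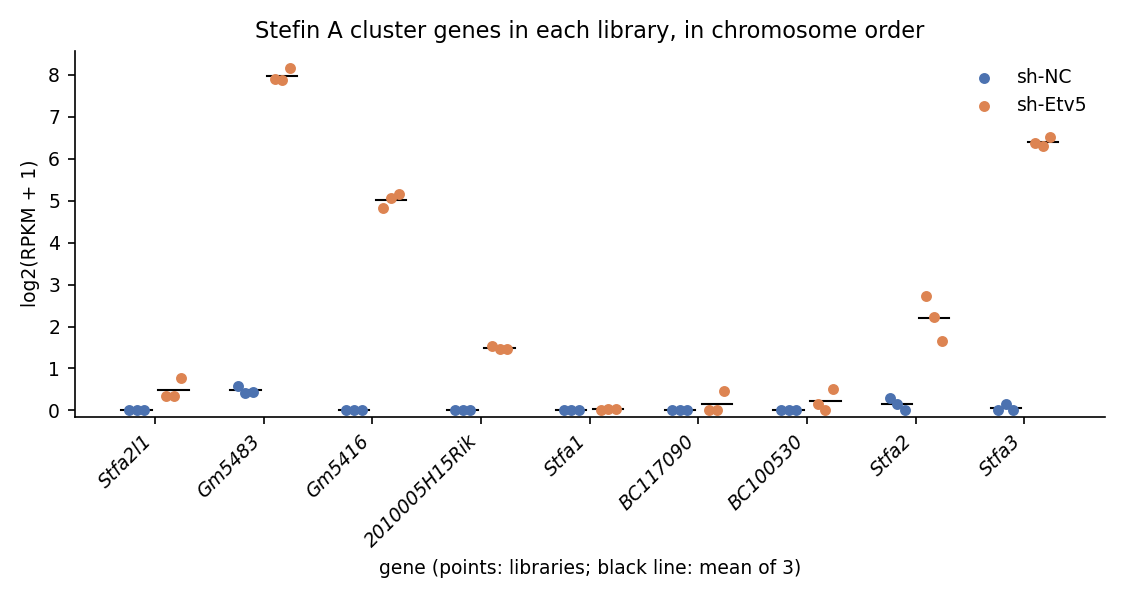
Level of each cluster gene in each library as log2(RPKM + 1), with sh-NC in blue and sh-Etv5 in orange, points for the 3 libraries of a group and a black line for their mean. Gm5483, Stfa3 and Gm5416 stand far above the other genes in sh-Etv5, while every sh-NC point is at or below 0.497 RPKM.

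The order of the levels in sh-Etv5 was Gm5483, Stfa3, Gm5416, Stfa2 and 2010005H15Rik, and the ranges of these 5 genes over the libraries did not overlap. Stfa2l1 overlapped with BC100530 and with BC117090, and the latter pair overlapped with Stfa1, while Stfa2l1 lay above Stfa1 in every sh-Etv5 library. A filter of at least 1 RPKM in at least 3 libraries passed 5 of the 9 genes and left out 4, and each of the 5 passed only through its sh-Etv5 libraries. Taken as a sum over all 9 genes, the cluster was at 0.725, 0.572 and 0.352 RPKM in sh-NC and at 358, 350.3 and 419 RPKM in sh-Etv5. The sum thus went from at most 0.000225% to between 0.106% and 0.123% of the library's total RPKM.

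High and low genes were interleaved along the chromosome. From the left, Stfa2l1, Gm5483, Gm5416, 2010005H15Rik and Stfa1 lie on the plus strand, followed by BC117090, BC100530, Stfa2 and Stfa3 on the minus strand. Gm5483 (chr16:36184212-36188111) lies next to Stfa2l1 (chr16:36156811-36161953), yet their sh-Etv5 levels were 233 to 287 and 0.260 to 0.713 RPKM. Stfa3 (chr16:36450537-36455392) closes the right end beside Stfa2 (chr16:36403992-36408457).

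One further gene with values lies inside the cluster. Gm6815, a transcribed pseudogene between Gm5483 and Gm5416 on the minus strand, was at 0, 0 and 0.0286 RPKM in sh-NC and at 0.452, 0.633 and 0.390 RPKM in sh-Etv5. Its groups did not overlap, and it did not pass the filter and was not tested. Csta1, the nearest gene to the left at 25.6 kb and itself a stefin gene, was at or below 0.0197 RPKM in every library. Casr, the calcium-sensing receptor gene 38.3 kb to the right, was at or below 0.00690 RPKM in every library.

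Of the 20 nearest protein-coding genes with values, 10 on each side, and Gm6815, 14 passed the filter. Among these 14, 7 rose and 5 fell in sh-Etv5, where 33.3% of all genes tested rose and 41.0% fell, and their median log2 fold change was 0.27 against -0.05 over all genes tested. Cd86, which encodes a costimulatory ligand for T cells and lies 148 kb to the right, was at 0.459, 0.515 and 0.362 RPKM in sh-NC and at 5.81, 5.11 and 5.66 RPKM in sh-Etv5. Its groups did not overlap, and the difference in mean log2(RPKM + 1) was 2.17. Cd86 and Dirc2, a further neighbour, passed the filter only through their sh-Etv5 libraries, so that a rise was built into their being tested. Hspbap1, a neighbour that rose, also needed its sh-Etv5 libraries, as only sh-NC replicate 2, at 1.07 RPKM, reached 1 RPKM among its controls. Fam162a, a mitochondrial protein gene 85.2 kb to the left, rose from a mean of 81.1 ± 1.27 to 163 ± 6.73 RPKM (SD, n = 3 each, limma adjusted p = 1.14e-09).

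Ccdc58, the closest tested gene on the left, was at 18.4, 16.5 and 16.7 RPKM in sh-NC and at 19.0, 16.5 and 19.1 RPKM in sh-Etv5, and did not pass the test (limma adjusted p = 0.298, and 0.0494 without sh-Etv5 replicate 2). Wdr5b fell from 3.20, 2.92 and 2.08 RPKM to 1.26, 1.34 and 2.07 RPKM, and its log2 fold change was -0.54 (SE 0.138, limma adjusted p = 0.00407), a call that was lost when genes with low values were kept in the fit (adjusted p = 0.101). On the right, Iqcb1 (log2 fold change 0.47, limma adjusted p = 0.00146) and Golgb1, a Golgi matrix protein gene (log2 fold change 0.76, limma adjusted p = 9.29e-07), rose.

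**Figure D2:**
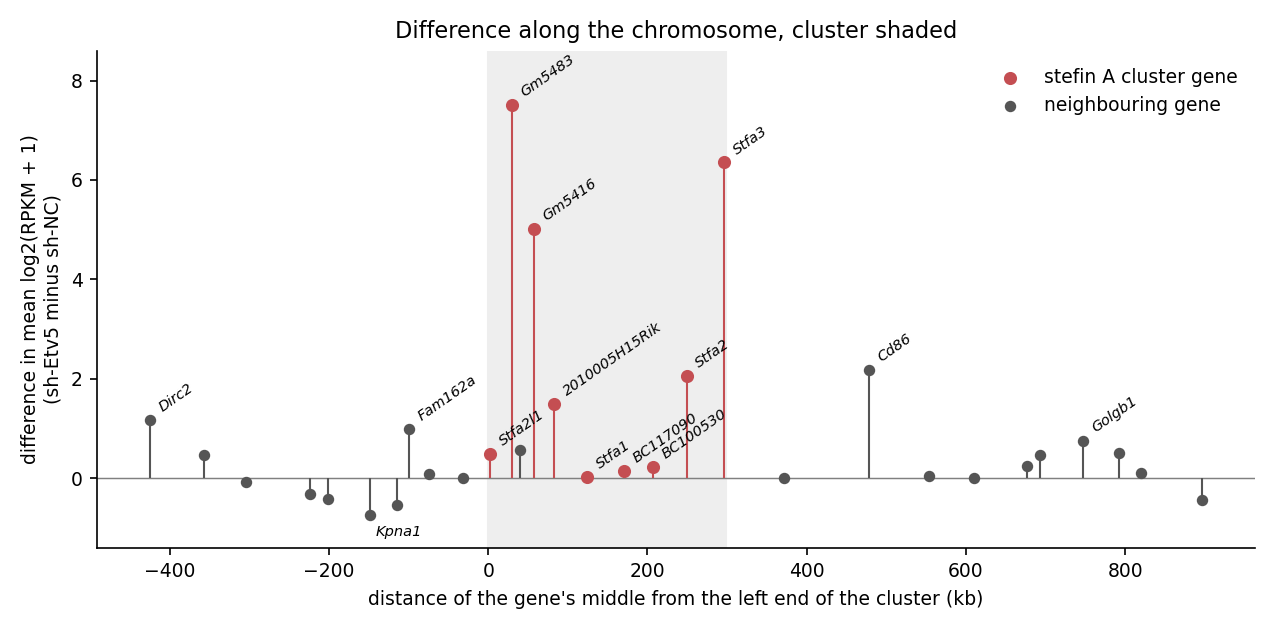
Difference in mean log2(RPKM + 1), sh-Etv5 minus sh-NC, for the cluster genes (red) and neighbouring genes (grey) against the distance of each gene's middle from the left end of the cluster in kb, with the cluster shaded. The highest red points, Gm5483 at 7.51, Stfa3 at 6.35 and Gm5416 at 5.02, stand among low ones, and the highest grey point is Cd86 at 2.17.

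The cluster genes resemble one another closely, which bears on how reads can be assigned to them. All sequences compared here and below were those of the reference genome, and the copies carried by Raw264.7 cells were not examined. Identity of the coding sequences was counted over the whole alignment, with gaps taken as differences. Over the 36 pairs it ranged from 59.3% to 96.9% with a median of 79.2%. The closest pairs were Gm5483 with 2010005H15Rik (96.9%), Stfa2l1 with Stfa2 (96.5%) and BC117090 with BC100530 (95.9%). Stfa1 was in each of the 5 least similar pairs. Its coding sequence is the longest at 387 bases, and the bases without a partner lower its values, so that these do not measure divergence alone. The 3 genes with the highest levels were not close to each other: Gm5483 and Gm5416 shared 81.3% of bases, Gm5416 and Stfa3 80.1%, and Gm5483 and Stfa3 78.5%.

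Sequence words of 50 bases were then compared with all annotated transcripts, since a read from a shared word could belong to either gene. No word of Gm5416 or of Stfa3 occurred in another gene, so that no exact match of this length made their assignment uncertain. Matches with differing bases were not examined. Gm5483 shared 130 of 365 words (35.6%), all with 2010005H15Rik, which in turn shared 130 of 638 words (20.4%). The level of 2010005H15Rik, which is far below that of Gm5483, is therefore uncertain. Stfa2 shared 15.9% of its words, Stfa2l1 24.6%, Stfa1 22.5%, BC117090 33.7% and BC100530 48.9%, and the authors' treatment of reads with several matches is not given in the sources used here.

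**Figure D3:**
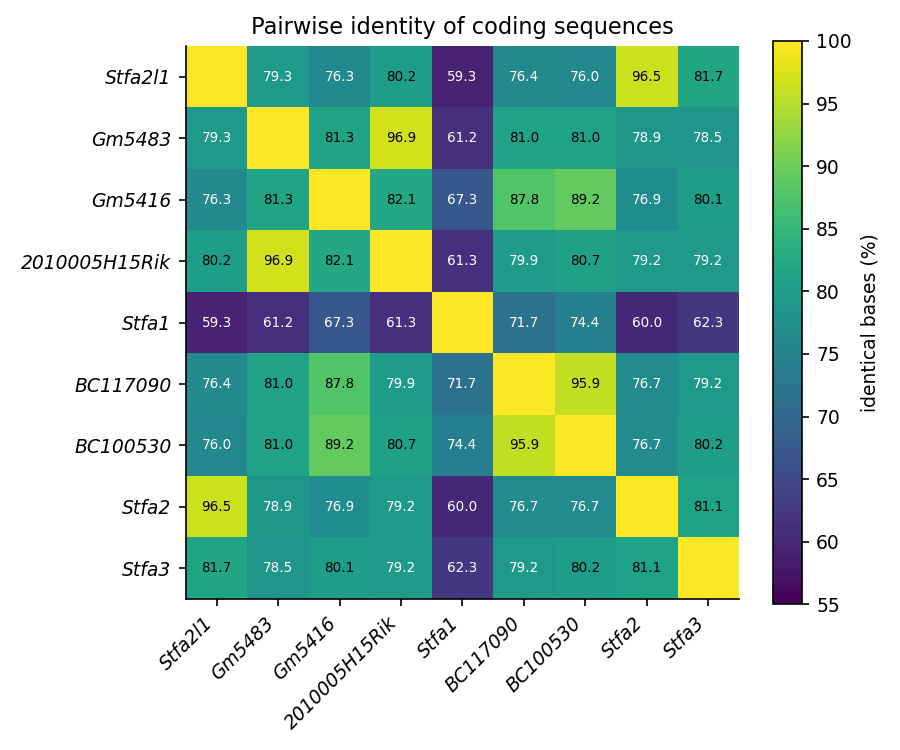
Share of identical bases, in percent, between the coding sequences of each pair of cluster genes, in chromosome order on both axes, with brighter squares for more similar pairs. The brightest pairs are Gm5483 with 2010005H15Rik, Stfa2l1 with Stfa2 and BC117090 with BC100530. The Stfa1 row is the darkest, in part because gaps count as differences and its coding sequence is the longest.

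Stefins insert a short hairpin loop into the protease, which carries a glutamine, any residue, a valine, any residue and a glycine. Each of the 9 coding sequences was translated and contained this pattern once. It is shown for the 3 genes with the highest levels and for Stfa2 and BC100530, in 60 bases of spliced coding sequence from GENCODE release M21 (GRCm38), 5′ to 3′ on the gene's strand, with the 5 codons of the loop in capitals. Each of these windows is interrupted by an intron in the genome and lies within the coordinates given, with plus strand for Gm5483 (chr16:36186418-36187925) and Gm5416 (chr16:36213572-36217674) and minus strand for Stfa3 (chr16:36450723-36452198), Stfa2 (chr16:36404141-36405177) and BC100530 (chr16:36359574-36364259).
Gm5483: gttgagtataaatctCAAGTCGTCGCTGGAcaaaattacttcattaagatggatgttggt
Stfa3: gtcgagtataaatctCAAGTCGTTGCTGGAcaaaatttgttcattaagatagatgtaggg
Gm5416: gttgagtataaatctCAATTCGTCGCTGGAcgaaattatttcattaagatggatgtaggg
Stfa2: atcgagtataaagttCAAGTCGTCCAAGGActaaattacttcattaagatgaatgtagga
BC100530: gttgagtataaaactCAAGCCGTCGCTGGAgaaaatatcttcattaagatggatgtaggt

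There were 5 distinct versions of the capital letters among the 9 genes. Gm5483, 2010005H15Rik and Stfa1 shared the first version, Stfa2 and Stfa2l1 shared that of Stfa2, and BC100530 and BC117090 shared that of BC100530, while Stfa3 and Gm5416 each had their own. The whole window of Gm5483 was also that of 2010005H15Rik. High and low genes thus occurred with the same loop codons, as Gm5483 at 233 to 287 RPKM and Stfa1 at most at 0.0315 RPKM in sh-Etv5 show.

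The promoters of the cluster genes were compared for shared stretches of sequence. RefSeq promoter sequences (250 bases before to 50 after the start, GRCm38.p6) were matched for 8 of the 9 genes, without BC117090. The 100 bases before the start are shown for the 3 highest genes and for Stfa2l1, the low neighbour of Gm5483, 5′ to 3′ on the gene's strand. Capitals mark CTTTAAAA, an AT-rich stretch resembling a TATA box, and GAGGAGNAG, both of which were picked after these sequences had been read. The windows are on the plus strand for Gm5483 (chr16:36184112-36184211), Gm5416 (chr16:36210303-36210402) and Stfa2l1 (chr16:36156711-36156810) and on the minus strand for Stfa3 (chr16:36455393-36455492).
Gm5483: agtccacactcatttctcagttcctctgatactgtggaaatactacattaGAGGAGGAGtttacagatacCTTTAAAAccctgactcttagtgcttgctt
Stfa3: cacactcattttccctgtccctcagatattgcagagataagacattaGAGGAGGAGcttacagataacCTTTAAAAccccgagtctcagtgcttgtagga
Gm5416: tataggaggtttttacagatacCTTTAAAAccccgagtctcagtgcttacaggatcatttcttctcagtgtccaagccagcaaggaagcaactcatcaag
Stfa2l1: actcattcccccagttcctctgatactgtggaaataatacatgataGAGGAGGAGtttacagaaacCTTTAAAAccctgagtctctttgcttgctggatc

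CTTTAAAA was found on either strand in 7 of the 8 promoters, where 2.59% of 32851 RefSeq promoters of the same length held it. It began at position -30 in Gm5483, -32 in Stfa3 and -34 in Stfa2l1, counted backwards from the base before the start as -1, and at -78 in Gm5416. All 294 bases of the annotated Gm5416 transcript are coding, so that its start is the first coding base. Its position can therefore not be compared with the others. GAGGAGNAG was found in 6 of the 8, where 5.47% of all promoters held it. Both stretches were absent from the 2010005H15Rik window, which also had the lowest identity to the others (46.5% to 50.7% over the whole RefSeq window). This gene has 3 annotated transcripts and spans chr16:36221468-36257444. The window lies at its left end, far from its loop codons (within chr16:36255595-36257258), and other possible starts were not examined. As these genes arose by duplication, their promoters are not independent examples. Stfa2l1 held both stretches and was at 0.260 to 0.713 RPKM, so that the letters alone did not separate high from low genes.

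Binding motifs of transcription factors of interest were searched on both strands of the same windows. GGAA, the core that ETS family factors such as ETV5 recognise, was in 7 of 8 promoters and in 96.0% of all promoters. CCGGAAG, a longer ETS form, was in 0 of 8, where 8.86% of all promoters held it. GAGGAAG, a form bound by the ETS factor PU.1 that overlaps the GGAA core, was in 3 of 8 (Gm5483, Stfa1 and BC100530) against 13.6% of all promoters. TTGCNNAA, bound by C/EBP factors, was in 3 of 8 (Gm5416, Stfa1 and BC100530) against 10.8%, TGANTCA, bound by AP-1, was in Stfa3 alone against 7.81%, and an NF-kB motif was in 0 of 8 against 0.411%. A match describes letters in a window and does not show binding.

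The cysteine cathepsins, among which are the targets of stefins, were examined next, together with legumain, a lysosomal cysteine protease that is not a stefin target. Of these 11 genes, 9 passed the filter, of which 4 rose and 3 fell in sh-Etv5, with a median log2 fold change of 0.00 against -0.05 over all genes tested. Over all genes tested 74.3% passed the test in one direction or the other. Ctsk, the collagen-degrading cathepsin of osteoclasts, and Ctsw did not pass the filter and were at or below 0.160 RPKM in every library.

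Ctsl, which encodes cathepsin L, a main target of stefins, was at 57.5, 59.7 and 59.5 RPKM in sh-NC and at 151, 151 and 162 RPKM in sh-Etv5. The groups were far apart, with a log2 fold change of 1.38 (SE 0.0382, limma adjusted p = 1.26e-10). Ctsc, which encodes the dipeptidyl peptidase that activates granule serine proteases, rose from 5.73 ± 0.343 to 21.3 ± 1.23 RPKM (SD, n = 3 each, log2 fold change 1.73, limma adjusted p = 5.99e-10). Ctsb, the most abundant of these protease mRNAs, was at 483, 467 and 478 RPKM in sh-NC and at 600.3, 595 and 604 RPKM in sh-Etv5, a smaller rise of 0.33 on the log2 scale (SE 0.0298, limma adjusted p = 1.53e-06).

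Not all cathepsins rose. Ctsh, an aminopeptidase of the lysosome, fell from 7.89, 6.88 and 7.82 RPKM to 1.75, 1.44 and 2.12 RPKM (log2 fold change -1.63, SE 0.0934, limma adjusted p = 3.72e-08). Ctss, which encodes cathepsin S, the protease that trims the invariant chain for antigen presentation, was at 165, 169 and 164 RPKM in sh-NC and at 159, 155 and 169 RPKM in sh-Etv5. Its groups overlapped and it did not pass the test (log2 fold change -0.05, limma adjusted p = 0.279), although it was called lower when the libraries were rescaled to the same sum (adjusted p = 0.00976) or without sh-Etv5 replicate 3 (adjusted p = 0.0354).

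Among cystatins listed as outside the cluster, 16 of 17 symbols had values and 3 passed the filter. The symbol without values was Csta2, the RefSeq name of the cluster gene 2010005H15Rik, so that it does not belong to this list. Cstb, the single stefin B gene, was at 145, 143 and 149.7 RPKM in sh-NC and at 262, 247 and 285 RPKM in sh-Etv5 (log2 fold change 0.85, SE 0.0483, limma adjusted p = 3.4e-08). Cst3, which encodes the secreted inhibitor cystatin C, fell from 1251, 1257 and 1274 RPKM to 630.2, 627 and 714 RPKM (log2 fold change -0.94, SE 0.0476, limma adjusted p = 1.35e-08). Cst7, which encodes cystatin F, an inhibitor carried to lysosomes, fell from 22.4 ± 1.39 to 5.67 ± 0.838 RPKM (SD, n = 3 each, log2 fold change -1.82, limma adjusted p = 7.28e-09).

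Per length, the balance of the inhibitor mRNAs therefore differed between the groups. In sh-NC the cluster sum of 0.352 to 0.725 RPKM was small beside Cstb at 143 to 149.7 RPKM. In sh-Etv5 the sum of 350.3 to 419 RPKM lay above Cstb at 247 to 285 RPKM and below Cst3 at 627 to 714 RPKM. Gm5483 alone, at 233 to 287 RPKM, overlapped the range of Cstb. The other 13 cystatins stayed under 1 RPKM in all libraries, and 6 of them were listed at 0 throughout.

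**Figure D4:**
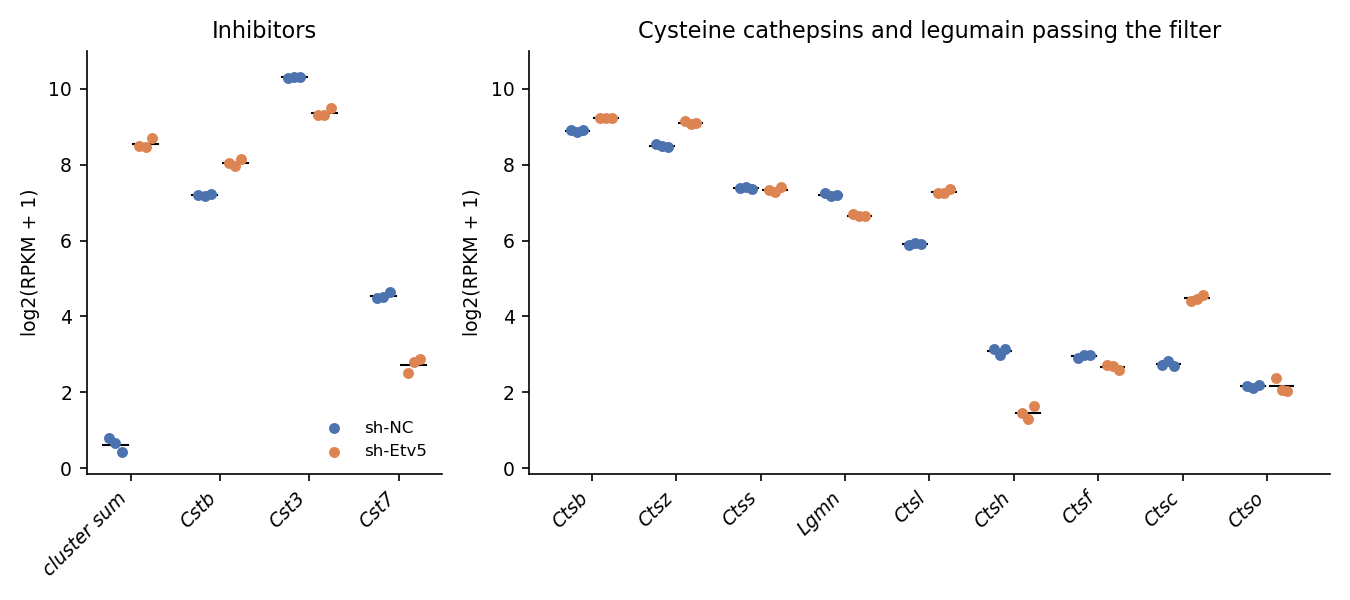
Levels as log2(RPKM + 1) in each library, sh-NC in blue and sh-Etv5 in orange with a black line for the mean of 3, for the summed cluster and the other expressed cystatins (left) and for the cathepsins and legumain that passed the filter (right). The cluster sum moves from below Cst7 to above Cstb, Cst3 and Cst7 are lower in sh-Etv5, and Ctsl and Ctsc are higher.

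As stefin A genes are known from neutrophils and skin, genes of those cells were set beside the cluster. Of 23 granulocyte genes, 20 were under 1 RPKM in all 6 libraries. The other three, Lcn2, S100a8 and Csf3r, were higher in every sh-Etv5 library than in any sh-NC library and were called higher, where 33.3% of all genes tested were. Lcn2, which encodes the iron-scavenging protein lipocalin 2, was at 0.0566, 0.0556 and 0 RPKM in sh-NC and at 127, 130.1 and 141 RPKM in sh-Etv5. S100a8, a calcium-binding alarmin, was at 0.491, 0.305 and 0.123 RPKM in sh-NC and at 19.7, 16 and 15.5 RPKM in sh-Etv5. Csf3r, the receptor of the granulocyte growth factor G-CSF, rose from 0.906 ± 0.108 to 1.96 ± 0.167 RPKM (SD, n = 3 each). Lcn2 and S100a8 passed the filter only through their sh-Etv5 libraries. They could only be tested because they were high there, and no p is given for them. Csf3r also needed its sh-Etv5 libraries, as only sh-NC replicate 1 reached 1 RPKM among its controls. Being tested thus depended on the sh-Etv5 levels for each of these genes, and nothing is read from their share called higher.

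The defining neutrophil genes were at or near 0. Ly6g, Elane, Retnlg, Cxcr2 and S100a9, the usual partner of S100a8, were listed at 0 in all 6 libraries, and Mpo and Ltf did not exceed 0.0210 RPKM. Camp reached at most 0.166 RPKM, Prtn3 0.155 RPKM and Mmp8 0.129 RPKM. The summed RPKM of 12 neutrophil markers was 0.355 to 0.779 in sh-NC and 15.6 to 19.9 in sh-Etv5, nearly all of it S100a8. All 7 keratinocyte markers with values were under 1 RPKM in every library, with sums of 0.501 to 0.596 in sh-NC and 0.550 to 0.699 in sh-Etv5. Macrophage markers were present throughout, with 7 of 8 above the filter, of which 3 rose (Itgam, Adgre1 and Cd14) and 4 fell (Csf1r, Cd68, Lyz2 and Fcgr1), where 33.3% of all genes tested rose and 41.0% fell. The Lyz2 call was lost when genes with low values were kept in the fit (limma adjusted p = 0.0568). Mertk was at or below 0.0653 RPKM in every library.

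**Figure D5:**
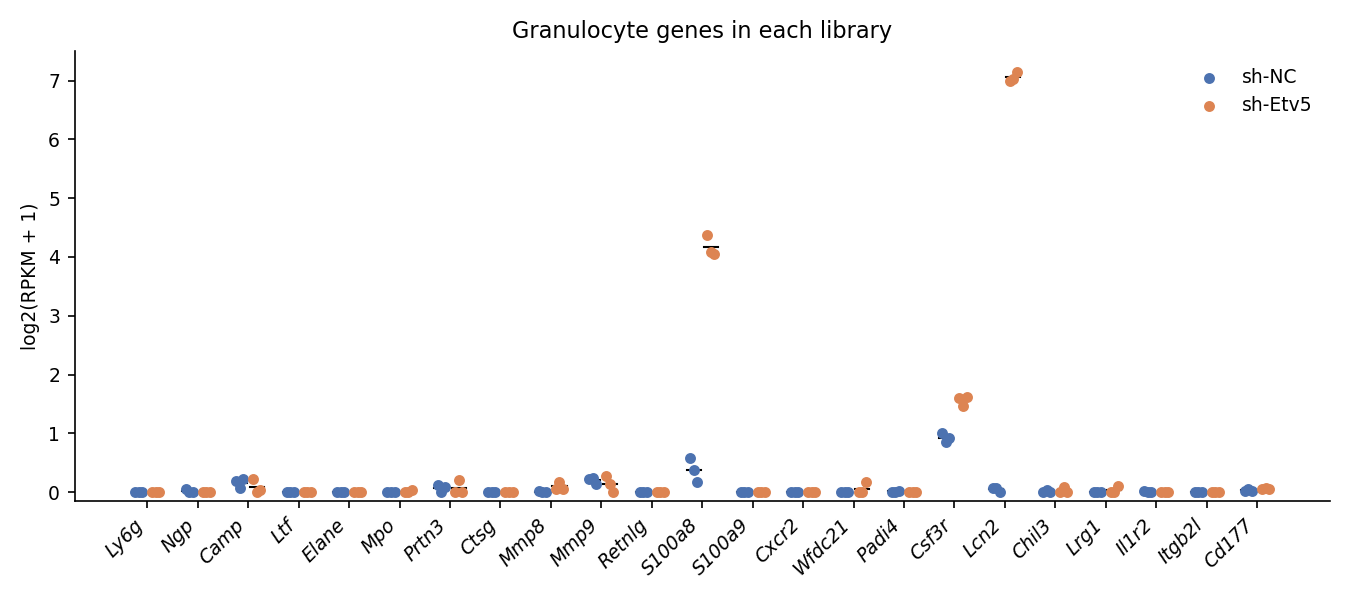
Level of each of the 23 listed granulocyte genes in each library as log2(RPKM + 1), sh-NC in blue and sh-Etv5 in orange, with a black line for the mean of 3 libraries. Lcn2, S100a8 and Csf3r rise in sh-Etv5, and the other 20 genes lie near 0 in both groups.

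Transcription factors of granulocytes and of the ETS family were listed with Etv5 and with Nfkbiz, the gene of an NF-kB cofactor. Of 13, 11 passed the filter, of which 6 rose and 5 fell, where 33.3% of all genes tested rose and 41.0% fell. The median log2 fold change was 0.15 against -0.05 over all genes tested. The 5 that fell include Etv5, the gene targeted by the hairpin. The 6 that rose include Nfkbiz, which the paper had already reported as increased after the knockdown. Nothing is therefore read from either count or from the median. Nfkbiz, which encodes the NF-kB cofactor IκB-ζ, rose from 3.69, 3.31 and 3.39 RPKM to 47.6, 49.3 and 47.3 RPKM (log2 fold change 3.46, SE 0.0493, limma adjusted p = 5.21e-13). Cebpd, a C/EBP factor induced in inflammation, rose from 12.4, 9.51 and 12.2 RPKM to 57.6, 59.0 and 62.8 RPKM (log2 fold change 2.31, limma adjusted p = 8.1e-10). Cebpa, the C/EBP factor needed for granulocyte commitment, fell from 17.3 ± 1.01 to 6.29 ± 0.523 RPKM (SD, n = 3 each, log2 fold change -1.33, limma adjusted p = 1.01e-08). Listed Cebp genes went both ways. Cebpe rose (log2 fold change 1.12, limma adjusted p = 2.82e-07), as did Cebpb (0.85, limma adjusted p = 3.68e-09). Cebpz fell (log2 fold change -0.48, limma adjusted p = 9.89e-06).

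The calls of Spi1 and Rara were small and depended on the setting. Spi1, which encodes PU.1, rose by 0.15 on the log2 scale (limma adjusted p = 0.0101) and was not called in 2 of 14 alternatives, when low genes were kept (adjusted p = 0.110) or libraries were rescaled to the same sum. Rara, which encodes a retinoic acid receptor, fell by 0.19 on the log2 scale (limma adjusted p = 0.0283) and was not called in 5 of 13 alternatives, with an adjusted p of up to 0.103, among them those without sh-NC replicate 1, 2 or 3 or without sh-Etv5 replicate 3.

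Genes with the most similar levels to Gm5483 were found by the Euclidean distance of log2(RPKM + 1) over the 6 libraries, among the genes that passed the filter. The nearest was Fabp4, a fatty acid carrier of adipocytes and macrophages, at a distance of 1.24, with 1.31, 1.19 and 1.31 RPKM in sh-NC and 223, 219 and 256 RPKM in sh-Etv5. Lcn2 (1.77), Csf3, which encodes G-CSF (2.01), Urah, an enzyme of urate breakdown (2.13), and the chemokine gene Ccl7 (2.61) followed. All 5 were at or below 1.31 RPKM in sh-NC and at 88.2 RPKM or more in sh-Etv5. Among the cluster genes themselves, Stfa3 was the gene ranked 7 in nearness to Gm5483 and Gm5416 that ranked 26, whereas Stfa2 and 2010005H15Rik ranked 6106 and 9229. This likeness rests on 6 libraries in 2 groups and describes levels only.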

How the data were processed

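The authors deposited RPKM values per gene symbol and library, made from coverage tracks, with mm10 as the build. The aligner, annotation, strand setting and gene lengths are not given in the sources used here. RPKM depends on the gene length assumed and on all other expressed genes. Depth was estimated from the commonest value of RPKM times transcript length within a preset low range, which is approximate. Of 6084 genes with 1 annotated transcript, 77 to 100 lay within 2% of that value in a library. Read numbers derived from it were not always whole. Intervals for counting error were therefore not computed.

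Of 24786 symbols, 24255 (97.9%) matched GENCODE release M21. Groups and replicate numbers came from the labels. The 10738 genes that reached 1 RPKM in 3 or more of the 6 libraries were compared as log2(RPKM + 1) with limma 3.58.1 in R 4.3.3 (intensity trend, two-sided, no covariate) and called at a Benjamini-Hochberg adjusted p under 0.05. Fold changes on this scale understate those of low genes. The limma fit, but no other step, was tested on simulated data. Python 3.11.15, NumPy 2.4.6, pandas 2.3.3, Biopython 1.88 and Matplotlib 3.10.9 were used for other steps.

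Cluster genes and lists were chosen with earlier results of these data known. Named were every cluster gene, Etv5, the 3 largest called changes of each list, Cstb, Cst3, Ctsl, Ctsb, Ctss, the 3 nearest tested neighbours on each side, genes inside the cluster and the 5 genes nearest to Gm5483 in level. Other genes were named after their values were seen.

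Alternatives were a mean RPKM of at least 5, keeping all genes, other pseudocounts (0.1 and 0.01), rescaling to the same sum, quantile normalization, no trend, a replicate block and each library left out.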

Additional observations from a re-analysis of the deposited data

How the results depend on the processing

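The summed cluster differed by 7.93 in mean log2(RPKM + 1), and by 9.21 and 9.44 with pseudocounts of 0.1 and 0.01 in place of 1, as the sh-NC sums lie below 1 RPKM. It was 7.89 after rescaling and 7.83 to 8.01 with single libraries left out. BC117090 had a difference of 0.00 without sh-Etv5 replicate 3, the only library in which it was above 0. The 6 genes at 0 in all sh-NC libraries could not reverse, and the cluster was selected on these values, so that no stability is read from them. With a mean RPKM of at least 5, fewer genes are tested, and 3 neighbours rose and 3 fell in place of 7 and 5. Granulocyte genes called higher numbered 1 to 3 with single libraries left out, the 1 being without any sh-Etv5 library, where Lcn2 and S100a8 no longer reached 1 RPKM in 3 libraries and were not tested. All other counts of calls stayed within a factor of 1.5, with 163 of 168 unchanged by that measure. No direction was reversed in 280 refitted values of Etv5, Ctsb, Ctsc, Ctsh, Ctsl, Ctss, Cstb, Cst3, Cst7, Lcn2, S100a8, Csf3r, Nfkbiz, Cebpd, Cebpa, Ccdc58, Fam162a, Wdr5b, Cd86, Iqcb1 and Golgb1. Etv5 is the target of the hairpin, and many of the others were named for their large called changes. Lcn2, S100a8 and Cd86 passed the filter only through sh-Etv5 libraries, so that no stability is read from these refits. The replicate numbers share no origin in the labels, and same-numbered libraries did not deviate together (correlations 0.074, -0.071 and -0.035 over 10738 genes). With the replicate block 3539 genes rose and 4361 fell, against 3575 and 4399 without it, and the block changed no count for a list. Depth limits the 4 genes under 1 RPKM and every sh-NC level of the cluster, which rest on 0 to about 4.26 reads. The median log2 fold change over genes tested ranged from -0.10 to 0.00 over scalings and filters.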
